A study of Mus musculus with 14 samples.

Results

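Sulfotransferases and UDP-glucuronosyltransferases were examined in mouse liver after a krill diet. The set was 10 genes, 4 sulfotransferases (Sult1a1, Sult1b1, Sult1d1 and Sult5a1) and 6 glucuronosyltransferases (Ugt2a3, Ugt2b1, Ugt2b5, Ugt2b34, Ugt2b35 and Ugt2b36). It took all 12 probe sets that the platform table lists with exactly 1 of these symbols, of 45101 in all, which read 18194 genes with 1 symbol. A probe set is the group of short probes that reads 1 transcript, and Sult1d1 and Ugt2b34 have 2 each. Both groups were male CBA/J mice, an inbred strain with no engineered allele named in the labels, housed singly on 84 kcal per week of food based on AIN93M, a purified maintenance formula. At 2 months of age 7 animals were put on control food, and the other 7 on food holding a powder extracted from krill, a marine crustacean. The diets held equal total protein and total lipid but differed in amino acids and fatty acids. After 3 months of feeding the livers were collected (age 5 months), and each mouse had its own array. The comparison of krill with control livers asks how the diet changed the transcripts of these enzymes.

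Both enzyme families make small molecules water-soluble so that they can leave in bile or urine. Sulfotransferases of the cytosol move a sulfate group from the donor PAPS onto phenols, amines, steroids and thyroid hormones. UDP-glucuronosyltransferases of the endoplasmic reticulum move glucuronic acid from UDP-glucuronate onto bilirubin, bile acids, steroids and drugs. The liver is a main site of both reactions, and its hepatocytes carry most of the enzymes.

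The genes are also close neighbours. All 10 were found in the RefSeq gene table of assembly GRCm38.p6, 8 of them on chromosome 5, where they are 8 of the 12 protein-coding genes from Ugt2b34 to Sult1d1. Along the chromosome the order of members is Ugt2b34, Ugt2b1, Ugt2b35, Ugt2b36, Ugt2b5, Ugt2a3, Sult1b1 and Sult1d1. Sult1a1 lies on chromosome 7 and Sult5a1 on chromosome 8. The bases 100 to 1 before the gene start are shown for the 5 Ugt2b members, because all of them hold a palindrome, GTTA and TAAC with any 5 bases between them (capitals), although their changes on the diet were unequal. Ugt2a3 and Sult1d1 are shown beside them as neighbours without it. Sequences are from RefSeq, build GRCm38.p6, read 5′ to 3′ on the strand of the gene.
Ugt2b34: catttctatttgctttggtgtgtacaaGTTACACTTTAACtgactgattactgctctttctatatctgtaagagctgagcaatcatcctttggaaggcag
Ugt2b1: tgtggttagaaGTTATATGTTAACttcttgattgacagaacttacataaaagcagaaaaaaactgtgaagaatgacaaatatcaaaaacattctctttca
Ugt2b35: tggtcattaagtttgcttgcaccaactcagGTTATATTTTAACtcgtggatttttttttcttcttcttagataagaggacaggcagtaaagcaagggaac
Ugt2b36: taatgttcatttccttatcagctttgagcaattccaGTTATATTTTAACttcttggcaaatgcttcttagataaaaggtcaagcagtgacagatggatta
Ugt2b5: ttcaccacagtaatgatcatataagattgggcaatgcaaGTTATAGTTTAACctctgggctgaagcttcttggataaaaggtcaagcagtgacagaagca
Ugt2a3: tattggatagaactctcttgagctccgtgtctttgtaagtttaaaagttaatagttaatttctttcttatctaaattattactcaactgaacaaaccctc
Sult1d1: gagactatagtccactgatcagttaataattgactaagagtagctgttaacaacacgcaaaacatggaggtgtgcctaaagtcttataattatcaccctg

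These stretches lie at chr5:86906938-86907037 (minus strand, Ugt2b34), chr5:86926504-86926603 (minus, Ugt2b1), chr5:87000760-87000859 (plus, Ugt2b35), chr5:87092556-87092655 (minus, Ugt2b36), chr5:87140341-87140440 (minus, Ugt2b5), chr5:87337196-87337295 (minus, Ugt2a3) and chr5:87569007-87569106 (minus, Sult1d1). In the palindrome the arms GTTA and TAAC read the same on both strands, but the 5 bases between them do not. The palindrome starts at base -89 in Ugt2b1, -73 in Ugt2b34, -70 in Ugt2b35, -64 in Ugt2b36 and -61 in Ugt2b5, counted back from the gene start. Ugt2b35 and Ugt2b36 share the same letters in it, GTTATATTTTAAC. The pattern was chosen after the sequences had been read, so its count among the members is not a test. It stood in 5 of 11 member promoters (Sult1b1 has 2) against 109 of 32851 promoters in the table (0.332%), each searched from 250 bases before to 50 after the start. The 5 belong to neighbouring genes of 1 family and are not independent counts. The core GCGTG, on both strands, stood in 2 member promoters, those of Sult1d1 and 1 of Sult1b1, against 32.4% of all promoters. TGACNNNGC, on both strands, stood in 0 member promoters against 12.4% of all.

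The arrays of the diets differed in quality, which touches every result. The log2 signal of spike-in RNA added at hybridisation was 12.92 ± 0.22 (SD, n = 7) with control food, but 13.71 ± 0.62 (SD, n = 7) with krill (two-sided exact permutation p = 0.0128). Krill replicates 2, 4, 5 and 7 lay above every control array in this measure. The ratio of 3' to 5' signal of actin ran from 1.78 to 2.44 in control and from 2.48 to 3.79 in krill arrays, so that the diets did not overlap. That of pyruvate carboxylase ran from 4.49 to 10.7 in control and from 11.6 to 25.7 in krill arrays, also without overlap. Because of the spike-in level, the results were also computed without those 4 krill arrays, which leaves 10 arrays. Krill replicates 1, 3 and 6, which were kept, had actin ratios of 3.01, 2.49 and 2.48, still above every control array. Their pyruvate carboxylase ratios of 11.6, 11.8 and 25.7 were also above every control array, and that of replicate 6 was the highest of all arrays. That fit therefore does not remove the difference in the 3' to 5' ratio. Hepatocyte markers were bright in both diets, with a summed signal of 383924 to 562426 in control and 493590.0 to 990170.0 in krill arrays. Of 8 tested 5 rose, against 22.9% of all genes tested. Without the 4 arrays 0 of the 8 passed in limma (1 at an unadjusted p under 0.05), against 12.7% of all genes called higher and 19.6% lower. In bulk liver, fewer cells of a type and less RNA per cell cannot be told apart.

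On the krill diet 7 of the 10 members rose and 0 fell, against 22.9% of the 11308 genes tested that rose and 24.8% that fell (limma, Benjamini-Hochberg adjusted p under 0.05). Of the 12 probe sets, fitted among 19246, 8 rose and 0 fell, against 19.1% and 26.3%. At an unadjusted p under 0.05, 8 of the 10 genes were higher and 0 lower in limma, against 27.1% and 28.1% of all genes. Sult1b1 and Sult1d1 rose 3.56-fold and 3.14-fold, Ugt2b1 2.22-fold and Ugt2b36 1.83-fold. Ugt2a3, Ugt2b35 and Sult1a1 rose 1.5-fold, 1.45-fold and 1.34-fold. Ugt2b5, Ugt2b34 and Sult5a1 did not pass, with log2 changes of 0.30, 0.29 and -0.18. The median log2 change of the members was 0.56, beside 0.04 for all genes tested and 0.58 for the 8 hepatocyte markers. All 12 probe sets lay in the brighter part of the table that was kept for testing, so no member was lost. Without krill replicates 2, 4, 5 and 7 the count was again 7 higher, but with Ugt2b5 in place of Sult1a1, and Sult5a1 fell, against 12.7% of genes higher and 19.6% lower in that fit. The median log2 change was then 0.54 for the members, -0.04 for all genes tested and 0.29 for the hepatocyte markers.

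Sult1b1, which sulfates thyroid hormones and phenols, made the larger rise of the sulfotransferases. Its signal ran from 2017 to 4770 with a median of 2947 in control livers, and from 5685 to 24633 with a median of 11227 in krill livers. Every krill liver was above every control liver, a separation found in 6.52% of all genes tested and in 2 of the 10 members, Sult1b1 and Ugt2b1. The means were 3175 ± 957 (SD, n = 7) and 12016 ± 6151 (SD, n = 7), and the log2 change, limma's difference between the mean log2 signals of the diets, was 1.83 (SE 0.26, limma adjusted p = 5.03e-05). Of all genes tested, 0.778% had a larger rise. The change was 1.37 without krill replicates 2, 4, 5 and 7 (limma adjusted p = 0.00169).

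Sult1d1, which sulfates catecholamines and other amines, lies next to Sult1b1 on chromosome 5 and has 2 probe sets. The brighter one ran from 5392 to 19502 with a median of 9928 in control livers, and from 18903 to 51316 with a median of 33915 in krill livers. The groups overlapped by 1 control liver, replicate 5, which was above the lowest krill liver. Means were 10727 ± 4599 (SD, n = 7) and 32937 ± 11015 (SD, n = 7), and the mean log2 signals differed by 1.65 (SE 0.26, limma adjusted p = 9.98e-05). The dimmer probe set of Sult1d1 changed by 1.79 (SE 0.28) and did not overlap between diets, with 2387 to 7287 in control and 7717 to 29289 in krill livers. Without krill replicates 2, 4, 5 and 7 the change of Sult1d1 was 1.20 (limma adjusted p = 0.0073). The 3 krill livers left had lower Sult1d1 signals on the brighter probe set, 18903 to 30349, than the 4 left out, 33915 to 51316.

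Sult1a1, the phenol sulfotransferase, rose less. It ran from 12686 to 23793 with a median of 16971 in control livers, and from 17979 to 29390 with a median of 22975 in krill livers. The diets overlapped, with 3 krill livers above the highest control liver. The log2 change was 0.43 (SE 0.16, limma adjusted p = 0.0403), and its call was lost in 8 of the 14 fits that left out 1 array (limma adjusted p from 0.0167 to 0.0935). Sult5a1 was the dimmest member, with 276 to 528 and a median of 402 in control livers, and 165 to 502 with a median of 363 in krill livers. Its log2 change was -0.18 (SE 0.23, limma adjusted p = 0.538) and the diets overlapped. Sult5a1 stood at -0.65 without krill replicates 2, 4, 5 and 7, where it was called lower (limma adjusted p = 0.0444): the 3 remaining krill livers had 272, 165 and 303, and the 4 left out had 363 to 502.

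**Figure D1:**
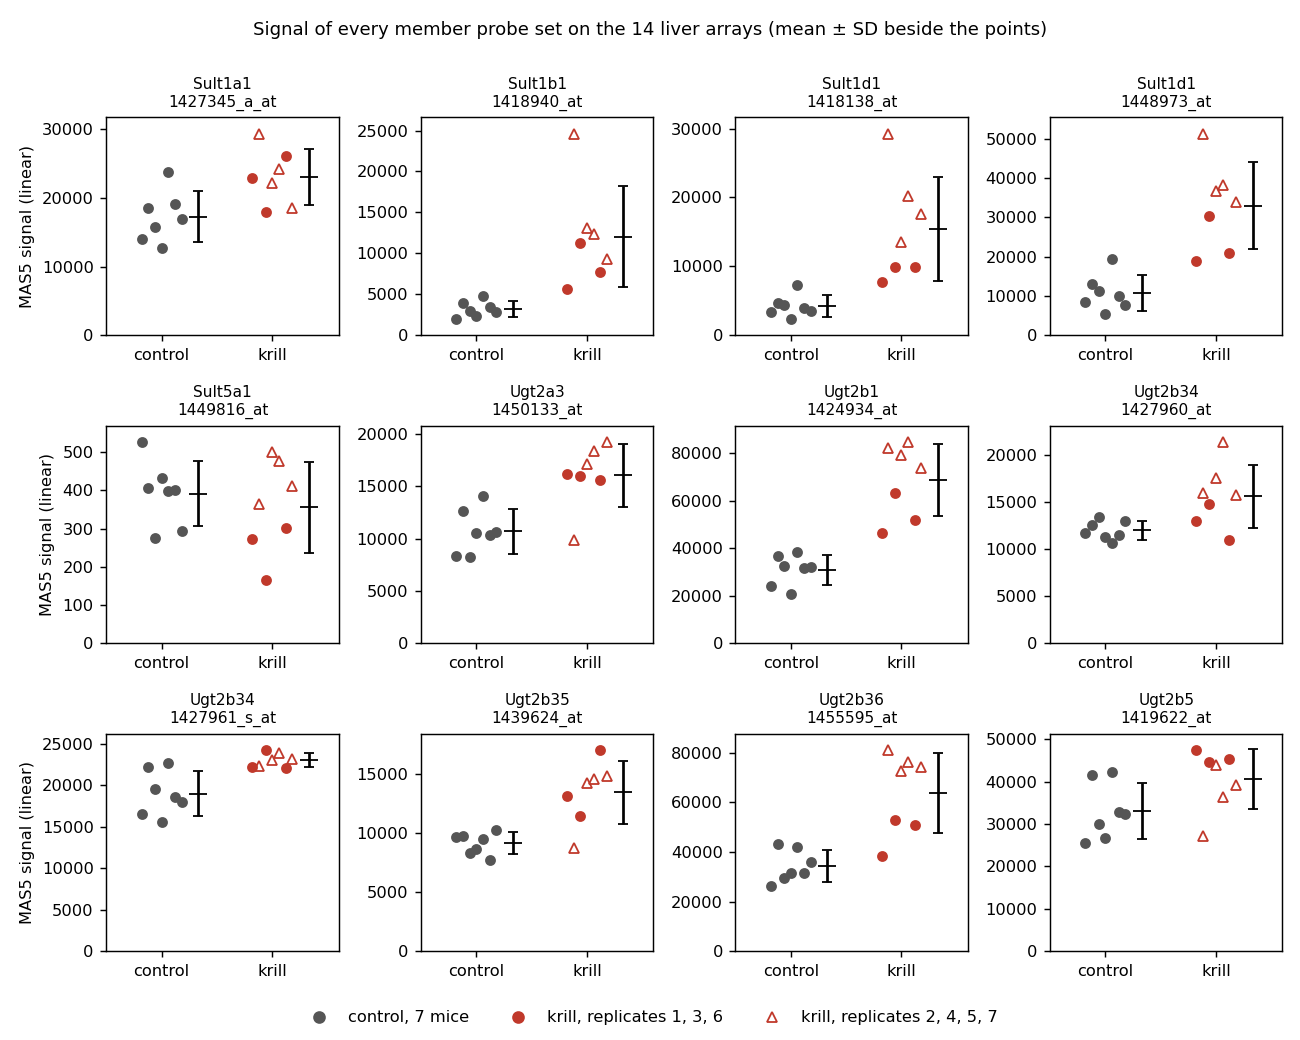
Linear MAS5 signal of each of the 12 member probe sets, 1 point per mouse for control (grey) and krill (red) livers, with mean ± SD beside the points. Open triangles mark krill replicates 2, 4, 5 and 7. Sult1b1, the dimmer Sult1d1 probe set and Ugt2b1 separate the diets fully, while the diets overlap for Sult5a1.

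Among the glucuronosyltransferases Ugt2b1, an enzyme of steroids and phenols, changed most. Its signal ran from 20724 to 38538 with a median of 32155 in control livers, and from 46169 to 84745 with a median of 73565 in krill livers. Every krill liver was above every control liver. The means were 30843 ± 6452 (SD, n = 7) and 68675 ± 15185 (SD, n = 7), and the mean log2 signals differed by 1.15 (SE 0.18, limma adjusted p = 0.000102). The change was 0.82 without krill replicates 2, 4, 5 and 7 (limma adjusted p = 0.00468). Those 4 livers had Ugt2b1 signals of 73565 to 84745, all above the 46169 to 63268 of the other 3.

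Ugt2b36 ran from 26336 to 43404 with a median of 31413 in control livers, and from 38510 to 81191 with a median of 72764 in krill livers. The lowest krill liver, replicate 1, was below 2 control livers. Its log2 change of 0.87 (SE 0.18, limma adjusted p = 0.00101) was 0.47 without krill replicates 2, 4, 5 and 7 (limma adjusted p = 0.0433). With that value Ugt2b36 moved by more than 1.5 times, as its 4 left-out krill livers had 72764 to 81191 and the other 3 had 38510 to 52776. Ugt2b36 and Ugt2b1 thus shared the same split of the krill arrays. Both probe sets of Sult1d1, that of Sult5a1 and the dimmer one of Ugt2b34 had this split too.

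Ugt2a3, whose human counterpart conjugates bile acids, ran from 8205 to 14052 with a median of 10559.5 in control livers, and from 9884 to 19276 with a median of 16165 in krill livers. In 6 of 7 krill livers it was above the highest control liver, and the exception was krill replicate 2. Its log2 change was 0.58 (SE 0.17, limma adjusted p = 0.0099), and 0.60 without krill replicates 2, 4, 5 and 7 (limma adjusted p = 0.0125). Ugt2b35 had the same shape. It ran from 7681 to 10266 with a median of 9532 in control livers, and from 8768 to 17039 with a median of 14247 in krill livers. Again krill replicate 2 was the lowest and 6 of 7 krill livers were above every control liver, and the change was 0.53 in log2 units (SE 0.15, limma adjusted p = 0.00885). Without krill replicates 2, 4, 5 and 7 the change of Ugt2b35 was 0.59 (limma adjusted p = 0.00698).

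Ugt2b5 ran from 25580 to 42163 with a median of 32384 in control livers, and from 27108 to 47509 with a median of 43984 in krill livers. The lowest krill liver was again replicate 2, and the log2 change of 0.30 (SE 0.16) did not pass (limma adjusted p = 0.139). Ugt2b5 passed without krill replicate 2 (0.39, limma adjusted p = 0.0409). It also passed without krill replicates 2, 4, 5 and 7 (0.49, limma adjusted p = 0.0307). Here the 3 remaining krill livers were the brighter ones, at 44537 to 47509 against 27108 to 43984, the opposite order to Ugt2b1 and Ugt2b36.

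Ugt2b34 has 2 probe sets, of which the brighter carries the suffix that marks possible matches to related transcripts. That probe set ran from 15556 to 22751 with a median of 18545 in control livers, and from 22104 to 24299 with a median of 23123 in krill livers. Its coefficient of variation, the SD as a percent of the mean, was 14.2% in control and 3.69% in krill livers, and its log2 change was 0.29 (SE 0.13, limma adjusted p = 0.0756). It passed without control replicate 5 (0.33, limma adjusted p = 0.0486). The other probe set had coefficients of variation of 8.40% and 21.4%, the opposite order, and stood at 0.36 in log2 units, which did not pass (SE 0.15, limma adjusted p = 0.0646 over 19246 probe sets). As the mean of both probe sets Ugt2b34 was called higher at 0.32 (limma adjusted p = 0.0443). How far near-identical Ugt2b transcripts add to each other's signal on these arrays was not tested, so the members of this family are uncertain in that respect.

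The size of these changes depended on how arrays were brought to 1 scale. Sult1b1 and Sult1d1 were called higher as deposited and with quantile normalization, median centring and spike-in scaling. Sult1b1 stood at 1.76 with quantile normalization, at 1.43 with arrays centred on their medians and at 1.04 with spike-in scaling. The median over all genes in these fits was 0.05, -0.36 and -0.75. Sult1d1 stood at 1.32, 1.25 and 0.86 in the same fits. With quantile normalization 4 members were called higher and 0 lower, against 24.8% and 21.7% of genes, and with centring 4 higher and 1 lower, against 8.85% and 33.0%. Ugt2b1 kept its call with quantile normalization (0.49) and with centring (0.75), but not with spike-in scaling (0.36, limma adjusted p = 0.15). With spike-in scaling 2 members were called higher and 1, Sult5a1, lower (-0.97), against 2.64% of genes higher and 49.1% lower. Relative to the median of all genes in that fit, Sult1a1, Ugt2a3 and Ugt2b35 stood at 0.38, 0.54 and 0.49, although their own changes were negative. Both this scaling and centring move all genes of an array alike. The same relative values therefore hold as deposited and with centring, and they add no evidence of a rise. With centring the changes of these genes were 0.02, 0.18 and 0.13, and none was called (limma adjusted p of 0.949, 0.570 and 0.694). When the mean log2 of the 3' to 5' ratios of actin and pyruvate carboxylase (the 3'/5' index) was added as a covariate, 0 of 10 members and 0 of 11308 genes were called (limma; 3 members were higher and 1 lower at an unadjusted p under 0.05, and 1873 genes passed in either direction), and Sult1b1 and Sult1d1 stood at 1.64 and 1.19. The index did not overlap between the diets, so its part and that of the diet cannot be told apart.

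**Figure D2:**
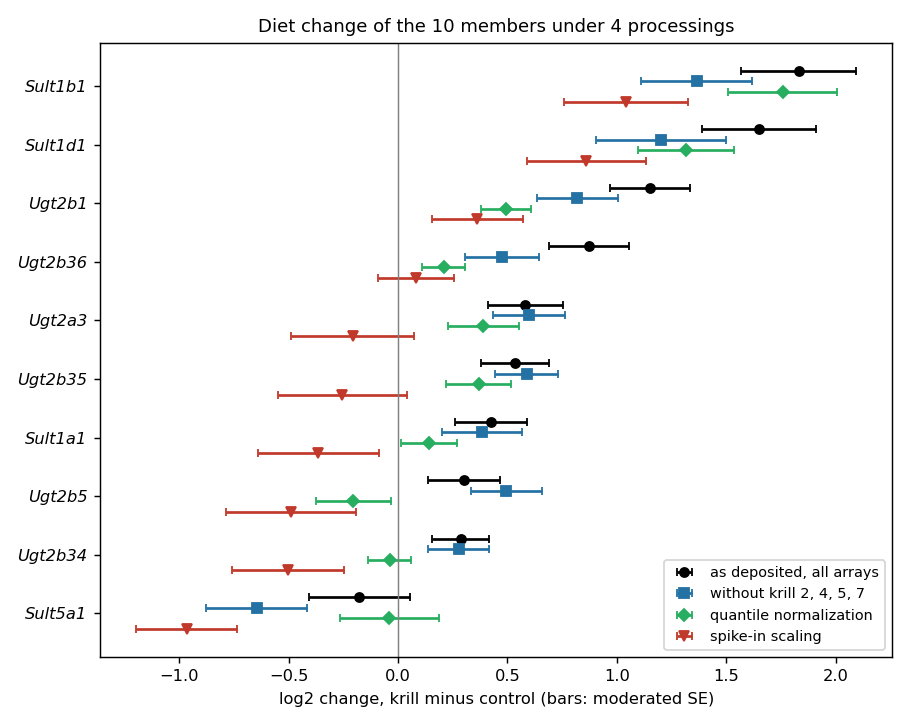
Log2 difference of each member between krill and control livers, with its standard error from limma, as deposited and under 3 other processings. Sult1b1 and Sult1d1 stay to the right of 0 in all 4, and Sult1a1, Ugt2a3, Ugt2b5, Ugt2b34 and Ugt2b35 move to the left of it with spike-in scaling.

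Differences between members within an array do not change when that array is scaled by 1 factor, as with centring or spike-in scaling. The 45 pairs of members were therefore compared on the per-array difference of their log2 signals. Quantile normalization is not 1 factor and can change these differences. With it Ugt2b36 and Sult5a1 stood at 0.21 and -0.04, closer than as deposited (0.87 and -0.18). Sult1b1 and Ugt2b1 stood at 1.76 and 0.49, further apart than as deposited (1.83 and 1.15). The 3' to 5' difference between the diets need not be 1 factor for all probe sets either. The pairs were not compared with the 3'/5' index as a covariate, so its part in the unequal changes was not tested. As deposited, 28 of the 45 pairs differed in their change (exact permutation test over 3432 assignments, two-sided, Benjamini-Hochberg adjusted over the 45). Sult1b1 rose more than 8 of the 9 other members and Sult1d1 likewise more than 8. Between these neighbours the difference was 0.18 (SE 0.16, exact permutation adjusted p = 0.307). The change of Sult1a1 minus that of Sult1b1 was -1.41 (SE 0.24, adjusted p = 0.00291, exact permutation test), with all 7 krill livers beyond every control liver. Sult1b1 exceeded Sult5a1 by 2.01 and Ugt2b34 by 1.54, each with the same adjusted p of 0.00291 in the exact permutation test. Ugt2b1 rose more than 7 others, and exceeded Ugt2b34 by 0.86 (SE 0.13) and Ugt2b36 by 0.28 (SE 0.096), with exact permutation adjusted p of 0.00291 and 0.0114. Without krill replicates 2, 4, 5 and 7, 17 pairs passed, 14 of them the same pairs with the same sign, and Sult1a1 minus Sult1b1 was -0.98 (exact permutation test over 120 assignments, adjusted p = 0.0312). The difference of Ugt2b1 and Ugt2b36 was then 0.35 and did not pass (exact permutation adjusted p = 0.0852).

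**Figure D3:**
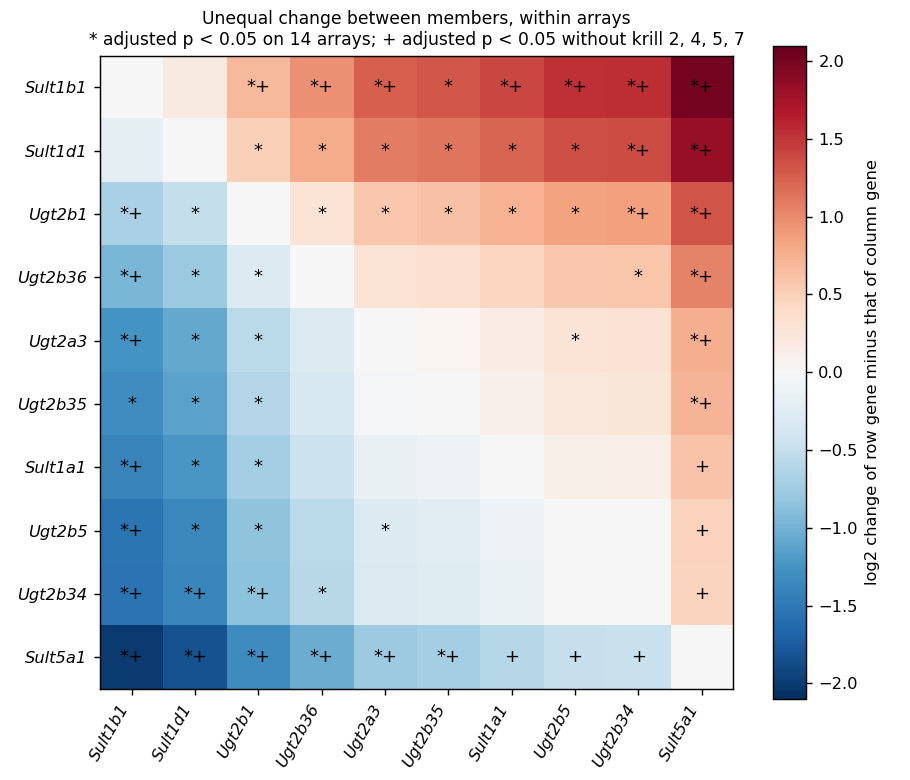
Difference in log2 change between members, row minus column, for all 45 pairs, with the rows and columns ordered by change. Asterisks mark the 28 pairs that passed the exact permutation test on 14 arrays and plus signs the 17 that passed without krill replicates 2, 4, 5 and 7. Most asterisks lie in the rows of Sult1b1, Sult1d1 and Ugt2b1, and Sult5a1 has a plus sign against all 9 others.

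Individual mice tended to be high or low in several members. Control replicate 5 had the highest signal of its group in 8 of the 12 probe sets, those of Sult1a1, Sult1b1, Sult1d1, Ugt2a3, Ugt2b1, Ugt2b5 and 1 of Ugt2b34. Control replicate 4 was the lowest in 5, those of Sult1a1, Sult1d1, Ugt2b1 and Ugt2b34. In the krill group replicate 2 was the highest in 5 probe sets, of Sult1a1, Sult1b1, Sult1d1 and Ugt2b36, and the lowest in 3, of Ugt2a3, Ugt2b35 and Ugt2b5. Krill replicate 1 was the lowest in 5. Members of 1 array share its scaling and RNA, so these are not independent counts.

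Other sulfotransferases and glucuronosyltransferases were few among the tested genes. Of 17 other sulfotransferases 9 had a probe set of their own and 2 were bright enough to be tested. Sult2a8, of a family that sulfates steroids and bile acids, rose by 1.00 (SE 0.20, limma adjusted p = 0.000529). Its rise was 0.51 when krill replicates 2, 4, 5 and 7 were left out, and with spike-in scaling it stood at 0.22 and did not pass (limma adjusted p = 0.248). Sult1c2, another cytosolic sulfotransferase, was lower at -0.61 (SE 0.19, limma adjusted p = 0.0129), and stood at -0.45 without those arrays, where it no longer passed (limma adjusted p = 0.127). Of 15 other glucuronosyltransferases 4 were tested and 0 passed in limma, also at an unadjusted p under 0.05. Their log2 changes were 0.26 for Ugt3a1, -0.28 for Ugt3a2, -0.19 for Ugt2b37 and -0.15 for Ugt2b38, with limma adjusted p from 0.288 to 0.74. Sult1e1, Ugt1a1, Ugt1a6a and Ugt1a9 were not tested here.

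Genes that supply the sulfate donor moved both ways, and of 10 that were tested 3 rose (Slc35b2, Cdo1 and Tst), 4 fell (Slc26a1, Papss2, Ethe1 and Suox) and 3 missed the threshold. Of all genes tested 22.9% rose and 24.8% fell. The median of the list was 0.16. Slc26a1, a sulfate transporter of the cell membrane, was 8.02-fold lower, at -3.00 in log2 units (SE 0.48, limma adjusted p = 0.000103). Papss2, which makes the sulfate donor PAPS, was 5.68-fold lower at -2.51 (SE 0.33, limma adjusted p = 3.1e-05). Slc35b2, which carries PAPS into the Golgi, rose by 0.84 (SE 0.19) and Cdo1, the cysteine dioxygenase upstream of sulfate formation, by 0.66 (SE 0.16). Without krill replicates 2, 4, 5 and 7 Slc26a1 and Papss2 stood at -1.56 and -1.61 and still passed (limma adjusted p = 0.00155 and 0.000984). In that fit 2 genes of the list were higher and 2 lower, against 12.7% and 19.6% of all genes. There Ethe1 (0.013) and Suox (-0.057) missed the threshold (limma adjusted p = 0.965 and 0.775). Tst did not pass either (0.33, limma adjusted p = 0.0932). With spike-in scaling 0 of the list were called higher in limma, also at an unadjusted p under 0.05. Only 2.64% of all genes were called higher in that fit. Tst stood at -0.29 in it. There Slc35b2 stood at 0.05 and Cdo1 at -0.13, and neither passed.

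In the supply and use of UDP-glucuronate 2 of 8 tested genes rose, 2 fell and 4 did not pass, with a median of 0.07. These counts stand against 22.9% of all genes that rose and 24.8% that fell. Slc35d1, which brings UDP-glucuronate into the endoplasmic reticulum, fell by 1.39 on the log2 scale (SE 0.25, limma adjusted p = 0.000241), and stood at -1.06 without krill replicates 2, 4, 5 and 7. Ugcg, which uses UDP-glucose to make glucosylceramide, stood at -0.86 (SE 0.27), and at -0.40 without those arrays, where it no longer passed (limma adjusted p = 0.257). Uxs1, which turns UDP-glucuronate into UDP-xylose, rose by 0.95 (SE 0.20), and Pgm2, a phosphoglucomutase, by 0.92 (SE 0.23), though neither passed with spike-in scaling (0.16 and 0.13). Pgm2 did not pass without krill replicates 2, 4, 5 and 7 either (0.60, limma adjusted p = 0.0817). Ugdh, which makes UDP-glucuronate, and Ugp2, which makes UDP-glucose, stood at 0.28 and -0.14 and missed the threshold (limma adjusted p = 0.218 and 0.625). Ugdh passed without those 4 arrays at 0.66 (limma adjusted p = 0.00747).

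Genes of conjugate hydrolysis, among them sulfatase activators, and transporters of conjugates were more often called lower than higher, though fewer transporters were when arrays were left out. Over all genes tested 22.9% were called higher and 24.8% lower. Those shares were 12.7% and 19.6% without krill replicates 2, 4, 5 and 7. Of 5 tested hydrolysis genes 0 rose and 3 fell (limma; 0 and 3 also at an unadjusted p under 0.05), among them Gusb, the beta-glucuronidase of lysosomes, at -1.32 (SE 0.24) and Arsa, a lysosomal arylsulfatase, at -1.04 (SE 0.22). Sumf1, which activates sulfatases, stood at -0.58 (SE 0.22, limma adjusted p = 0.0338) and no longer passed without krill replicates 2, 4, 5 and 7 (-0.30, limma adjusted p = 0.259). Arsb, a related arylsulfatase, did not pass at -0.45 (limma adjusted p = 0.148). Sts, the steroid sulfatase, was not tested here. Of 9 tested transport genes 1 rose (Slco1a1, at 0.59), 6 fell and 2 missed the threshold, with a median of -0.81. Leaving out krill replicates 2, 4, 5 and 7, only 3 transport genes were lower, 1 was higher and the median was -0.23. In that fit Abcg2 went from -0.81 to 0.093 and Slc22a7 from -0.72 to -0.23, and neither passed (limma adjusted p = 0.739 and 0.362). With spike-in scaling Slco1a1 stood at -0.19 and did not pass. Abcc2, the export pump of glucuronides into bile, stood at -1.55 (SE 0.31, limma adjusted p = 0.000706) and Abcc3, which exports them to blood, at -0.96 (SE 0.25, limma adjusted p = 0.00522). Without krill replicates 2, 4, 5 and 7 Abcc2 was at -0.82 and still passed, while Abcc3 was at -0.71 and did not (limma adjusted p = 0.066). Abcc6, a transporter of the same family, and Slco2b1, an uptake carrier of sulfated steroids, fell by 2.20 and 1.75 on the log2 scale.

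**Figure D4:**
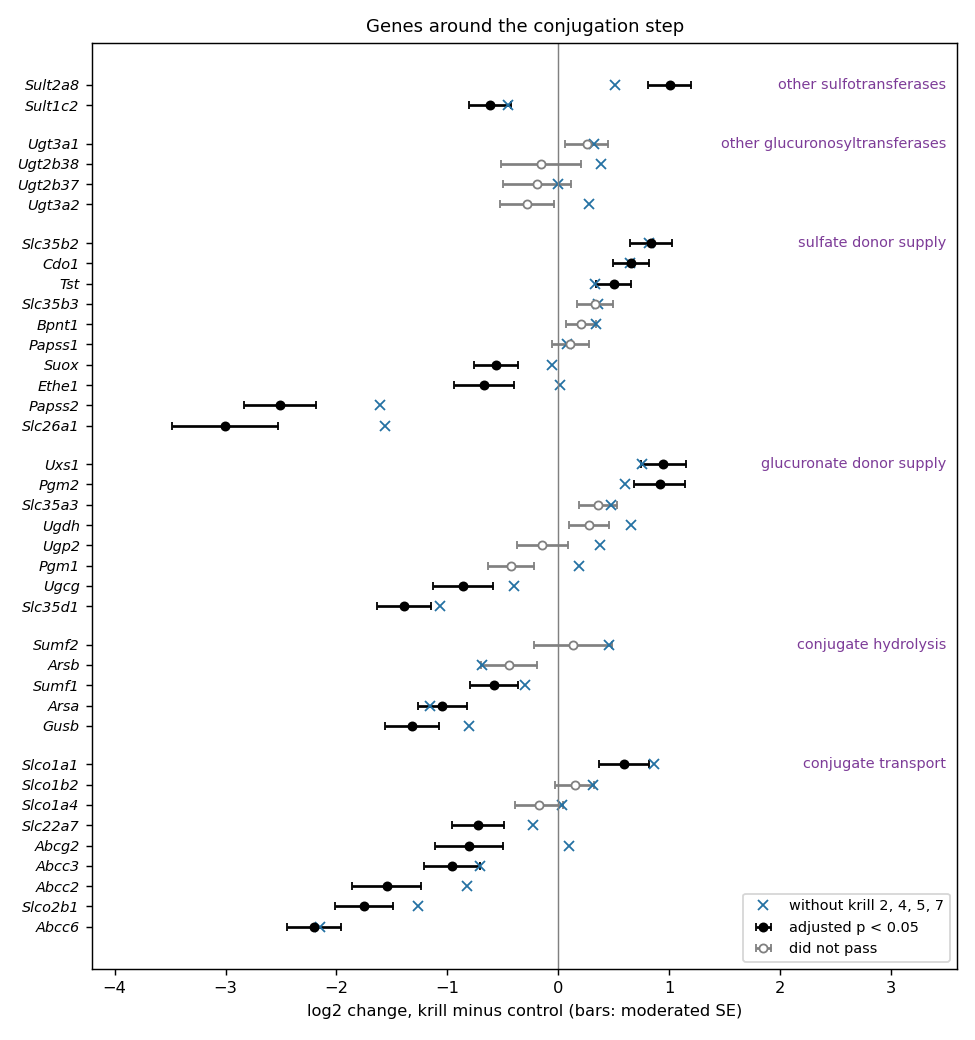
Log2 change, krill minus control, with its standard error for the tested genes around the conjugation step, grouped by role. Filled points passed limma's test, and blue crosses give the change without krill replicates 2, 4, 5 and 7. Slc26a1, Papss2 and Abcc6 have the lowest values.

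Among 14 tested regulators of these enzymes 2 were higher (Ahr and Nr1h4), 4 were lower (Rxra, Ppara, Keap1 and Cebpa) and 8 missed the threshold, with a median of -0.39. The shares over all genes were 22.9% higher and 24.8% lower. Tst, Ethe1, Suox, Slco1a1, Slc22a7, Abcg2, Nr1h4, Cebpa and the blood marker S100a8 were named after their values had been seen. Rxra, the partner of many nuclear receptors, and Ppara, the fatty acid receptor, fell by 1.82 and 1.93 on the log2 scale (SE 0.23 and 0.28). Keap1, which holds back the antioxidant factor Nfe2l2, was lower at -0.84 (SE 0.22) and Nfe2l2 itself stood at -0.44 (limma adjusted p = 0.0876). Ahr, the aryl hydrocarbon receptor, was higher at 0.90 (SE 0.24), but at 0.31 without krill replicates 2, 4, 5 and 7 it did not pass (limma adjusted p = 0.192), nor did it with spike-in scaling, at 0.11. Without those 4 arrays 0 regulators were higher (limma, 1 at an unadjusted p under 0.05) and 5 were lower, against 12.7% and 19.6% of all genes. Nr1h4, the bile acid receptor, stood at 0.23 and Cebpa, a hepatocyte factor, at -0.22, and neither passed (limma adjusted p = 0.211 and 0.269). With spike-in scaling Nr1h4 stood at -0.39. The drug receptors Nr1i2 and Nr1i3 stood at -0.35 and 0.23 and Hnf4a, another hepatocyte factor, at -0.56, and none of these 3 passed (limma adjusted p from 0.0867 to 0.393). Nfe2l2 was called lower without those 4 arrays, at -0.83 (limma adjusted p = 0.00479).

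Markers of other tissues that carry these enzymes were dim. The marker counts below stand against 22.9% of all genes tested that were called higher and 24.8% that were called lower. Without krill replicates 2, 4, 5 and 7 these shares were 12.7% and 19.6%. Summed over 6 kidney markers the signal was 293 to 461 in control and 288 to 1185 in krill arrays, and 2 of the 3 tested rose (0 without krill replicates 2, 4, 5 and 7 in limma, and 0 at an unadjusted p under 0.05). No marker in any list had a mean of 0, and the dimmest of kidney, Cdh16, had a mean of 19.0. The dimmest of intestine, Vil1, had 21.1 and that of pancreas, Cpa1, 14.1. The 5 intestinal markers summed to 342 to 523 in control and 211 to 876 in krill arrays, with 1 of 2 tested called higher. The 5 cholangiocyte markers summed to 274 to 443 and 231 to 748. For Kupffer cells the 7 markers summed to 6976 to 9353 in control and 8341 to 16347 in krill arrays, with 2 of 6 tested higher and 1 lower. The 6 endothelial markers summed to 9621 to 13095 and 8019.7 to 19886 (1 of 5 tested higher, 1 lower), and the 7 stellate cell markers to 12655 to 17669 and 12118 to 16825 (1 of 6 higher, 1 lower). The 4 pancreas markers summed to 179 to 362 and 175 to 564, and the 1 tested did not pass. The 5 blood cell markers summed to 3671 to 4333 and 2814 to 8607, and 1 of 4 tested rose. It was S100a8 of neutrophils, at 1.42, which also passed without krill replicates 2, 4, 5 and 7 (0.91, limma adjusted p = 0.0387) and with spike-in scaling (0.63, limma adjusted p = 0.0367). The part of other cell types in the changes of the members was not tested.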

How the data were processed

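The deposited table holds 1 signal intensity per probe set and array, not log-transformed. The authors made these intensity values with MAS5, per the submitters' processing notes; which version of it was not given in the sources used here. The deposited arrays share 1 mean after 2% of values is trimmed at each end. No depth applies; 7 arrays per diet limit the precision. Of 45101 probe sets 64 were controls, 34945 had 1 symbol, 932 had several and 9160 had none; only those with 1 were tested. Signal was taken as log2(signal + 16), which understates changes of dim genes. The brighter 22518 probe sets were kept, the brightest per gene standing for it (11308 genes), or every probe set with 1 symbol (19246). Diet was fitted with limma 3.58.1 (R 4.3.3; eBayes with trend, no covariate), with Benjamini-Hochberg adjustment over all features and 0.05 as threshold. Each array is a separate mouse. The procedures were tested on simulated data. Python 3.11.15, numpy 2.4.6, pandas 2.3.3 and matplotlib 3.10.9 did the rest. The spike-in level is the mean log2 signal of 18 hybridisation probe sets, and the 3'/5' index the mean log2 ratio of actin and pyruvate carboxylase.

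The members, the gene lists, the alternatives and the rule for naming were chosen with earlier results of these data known. The rule names all members, up to 4 genes per pathway list by smallest p and a written panel. Alternatives were pseudocounts of 1 and 64, other scalings, other filters, probe set means, no trend, array weights, a replicate block, technical covariates and arrays left out.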

Additional observations from a re-analysis of the deposited data

Results flagged for a closer look

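Within the 24 groups of 7 member values and 6 of technical measures, 1 array stood far from the others of its group. For Ugt2a3 krill replicate 2 had a log2 signal of 13.27, the next lowest krill array being at 13.93, a gap of 0.687 of the whole range of the group. Chance alone puts about 1 in 20 groups past the limit used of the 30. Krill replicate 2 is also the lowest krill array for Ugt2b35 and Ugt2b5, and without it the log2 changes of Ugt2a3, Ugt2b35 and Ugt2b5 were 0.69, 0.63 and 0.39.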

How the results depend on the processing

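Of the 10 members 7 rose as reported; the count was 4 with quantile normalization, median centring or the spike-in covariate, 2 with spike-in scaling and 0 with the 3'/5' index, and 6 to 8 when 1 array was left out. Of 8 probe sets called higher, 4, 5, 4, 3 and 0 were called with quantile normalization, centring, the spike-in covariate, spike-in scaling and the index. Called lower were 0 members, and 1 member (1 probe set), Sult5a1, with centring, spike-in scaling or without krill replicates 2, 4, 5 and 7. In the pathway lists 9 genes were higher and 20 lower; the higher count was 1 with centring, 0 with spike-in scaling (limma, also 0 at an unadjusted p under 0.05), 3 with the spike-in covariate and 0 with the index (4 unadjusted), and the lower count 32 with spike-in scaling, 10 with the spike-in covariate and 0 with the index (12 unadjusted). Over all genes tested, 2594 genes were higher and 2803 lower; higher were 1001 with centring, 298 with spike-in scaling, 790.0 with the spike-in covariate and 1438 without the 4 krill arrays, and lower 5547 with spike-in scaling and 1188 with the spike-in covariate, while the index left 0 and 0. Of 3674 probe sets higher and 5055 lower, higher were 1399, 424, 1007 and 2016 under those 4 settings, and lower 10112 and 2006; the index again left 0 (limma, 2907 unadjusted). The 28 unequal pairs became 17 without the 4 krill arrays, where the smallest exact p is 0.00833. The cause was not tested.

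With spike-in scaling the sign turned for Sult1a1 (-0.36), Ugt2a3 (-0.21), Ugt2b35 (-0.25), Ugt2b5 (-0.49), Ugt2b34 (-0.50; its dimmer probe set -0.43), Cdo1 (-0.13), Nr1i3 (-0.56), Ugdh (-0.51), Ugt3a1 (-0.53), Nr1h4 (-0.39), Slco1a1 (-0.19) and Tst (-0.29). Centring turned Ugt2b5 (-0.10), Ugt2b34 (-0.12; dimmer probe set -0.047), Nr1i3 (-0.17), Ugdh (-0.13), Ugt3a1 (-0.15) and Nr1h4 (-0.0037), and quantile normalization turned Ugt2b5 (-0.20) and Ugt2b34 (-0.037). The spike-in covariate turned Hnf4a (0.059), Ugp2 (0.34), Ugt2b37 (0.14), Ugt2b38 (0.75), Ugt3a2 (0.34), Abcg2 (0.13) and Ethe1 (0.096). The 3'/5' index turned Ahr (-0.17), Nr1i2 (0.16), Ugp2 (0.61), Ugt2b37 (0.44), Ugt2b38 (0.72), Ugt3a2 (0.72), Abcg2 (0.40), Ethe1 (0.37), Slc22a7 (0.18) and Suox (0.27). Without the 4 krill arrays Hnf4a (0.041), Ugp2 (0.37), Ugt2b37 (0.00088), Ugt2b38 (0.39), Ugt3a2 (0.28), Abcg2 (0.093) and Ethe1 (0.013) turned, and as the mean of its probe sets Nfe2l2 (0.0048) did. With 1 array left out Ugt2b37 ran from -0.28 to 0.073 and Ugt2b38 from -0.36 to 0.12. None of these turned values passed limma's test.

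The labels do not say that replicate numbers pair the mice. Same-numbered arrays had correlations of -0.02 to 0.098, and 1 of 7 krill arrays correlated best with its own number. Low correlations cannot show that the mice were unpaired. With the replicate number as a block the count of members called higher was 7, and of unequal pairs 22. The pairs were then compared with an exact sign-flip test, in which the smallest p is 0.0156.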
